A study of Homo sapiens with 6 samples.

Results

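The 3 libraries of 8505C cells that carry a control short hairpin RNA (CTRL_shRNA) were described gene by gene as a picture of the baseline state of the line with that hairpin. They were chosen by their titles, are 3 of the 6 libraries of the series, and gave counts for 58735 named genes, of which 19951 were protein-coding. 8505C is an established line grown from an anaplastic thyroid carcinoma, the undifferentiated form of thyroid cancer. The study set the control hairpin against a hairpin to HHEX, and the HHEX hairpin libraries entered no value given here. The control cells were labelled wild-type in genotype and untreated. They were plated in 6-well plates and kept for 24 h, and polyadenylated RNA was captured for sequencing. The series calls the libraries biological replicates, while the titles give 2 of the 3 the same first replicate number and do not say which of the 3 count columns is which library. The spread given here may therefore be partly technical. They are named here control1, control2 and control3 after the columns, and 3 values in a row follow that order.

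Follicular cells of the thyroid are made by a small set of transcription factors (NKX2-1, PAX8, FOXE1 and HHEX) that act together. These factors switch on the genes that take up iodide, build thyroglobulin and couple iodine to it. Anaplastic carcinoma is known for the loss of that programme, for fast division and for mesenchymal traits. All 3 libraries were of similar depth, with 13333245, 15144176 and 14673875 counts in named genes. A level is given as CPM, counts per 1000000 counts in named genes of the same library, or as TPM. TPM also divides by the summed exon length of the gene and is used to rank genes, except where CPM is stated. Means are given ± SD over the 3 libraries (n = 3). A gene with 0 counts could still lie at up to 0.225, 0.198 or 0.204 CPM, which is what 3 counts make in the 3 libraries. Intervals and limits of this kind cover counting error only.

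Of the 58735 named genes, 12856 reached 1 CPM in every library, and 33288 had 0 counts in all 3. Among the 19938 protein-coding genes of the nuclear chromosomes, 11549 (57.9%) reached 1 CPM in every library and 4520 (22.7%) had no count. The 10 most abundant genes held 8.42% ± 0.525 of all counts. Between 810 and 922 genes made up 50% of the counts of a library, so no handful of transcripts filled these libraries. The 13 protein-coding genes of mitochondrial DNA, which encode subunits of the respiratory chain and ATP synthase, took 2.96% ± 0.242 of the counts, and with the ribosomal and transfer RNAs of that genome the share was 3.99% ± 0.294.

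The thyroid transcription factors were all still detected, and most of the machinery of hormone synthesis was not. NKX2-1, the homeodomain factor of thyroid and lung (chr14:36516392-36521149, minus strand, GRCh38), was the highest of the 5 factors at 26.9, 50.2 and 36.1 CPM. Its mean was 37.7 ± 11.7 CPM, with control2 the highest library and control1 the lowest. HHEX, the homeobox repressor that the other hairpin of the study targets (chr10:92689951-92695646), stood at 12.7, 12.7 and 12.5 CPM from 169, 193 and 184 counts. These 3 values were closer together than the 7.41% that counting error alone gives at that depth, so its spread was not resolved. The other 3 factors were low. PAX8, a paired-box activator of the thyroglobulin gene (chr2:113215997-113278950), gave 3.0, 3.17 and 5.72 CPM, with control3 above the other 2. FOXE1, the forkhead factor of the thyroid bud (chr9:97853254-97856715), gave 3.9, 3.43 and 4.16 CPM. GLIS3, the zinc-finger factor needed for the response of the gland to thyrotropin, gave 3.23, 3.76 and 3.88 CPM. Per length, NKX2-1 (46.7 ± 12.8 TPM) and HHEX (19.8 ± 0.622 TPM) lay above the median of 5.03 TPM over all nuclear protein-coding genes. FOXE1 (4.37 TPM), PAX8 (2.12 TPM) and GLIS3 (1.21 TPM) lay below it.

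Of 19 genes for hormone synthesis, iodide handling and hormone response, 4 reached 1 CPM in every library and 5 had 0 counts throughout. Genes at 0 in all 3 libraries included ANO1, a chloride channel, DUOXA1 and DUOXA2, the maturation factors of the dual oxidases, and TFF3, a secreted trefoil peptide. TG, the thyroglobulin scaffold of the hormone, had 1 count in all, in control3, where the exact Poisson 95% interval runs from 0.00173 to 0.380 CPM. SLC5A5, the sodium-iodide symporter, and DUOX2, a hydrogen peroxide-forming oxidase, also had 1 count each, both in control3. TSHR, the thyrotropin receptor, had 4, 0 and 0 counts. IYD, which recycles iodide, had 0, 0 and 3 counts, and SLC5A8, a monocarboxylate transporter of the gland, had 1, 0 and 0 counts. Transcripts of the hormone genes named so far, SLC5A5 and DUOX2 among them, were therefore at or near the limit of counting in these libraries. Pendrin (SLC26A4, 0.75, 0.528 and 0.204 CPM), the anion exchanger SLC26A7 (0.15, 0.594 and 0.7496 CPM) and the deiodinases DIO1 (0.15, 0.462 and 0.0681 CPM) and DIO2 (0.375, 0.528 and 1.02 CPM) stayed under 1 CPM on average. The genes that passed 1 CPM in every library included DUOX1 (1.05, 1.25 and 2.59 CPM) and the nuclear hormone receptors THRB (1.43, 1.65 and 2.79 CPM) and THRA (29.9, 28 and 35.03 CPM). THRA is widely expressed outside the thyroid and was the only one of the 19 above 10 CPM.

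**Figure D1:**
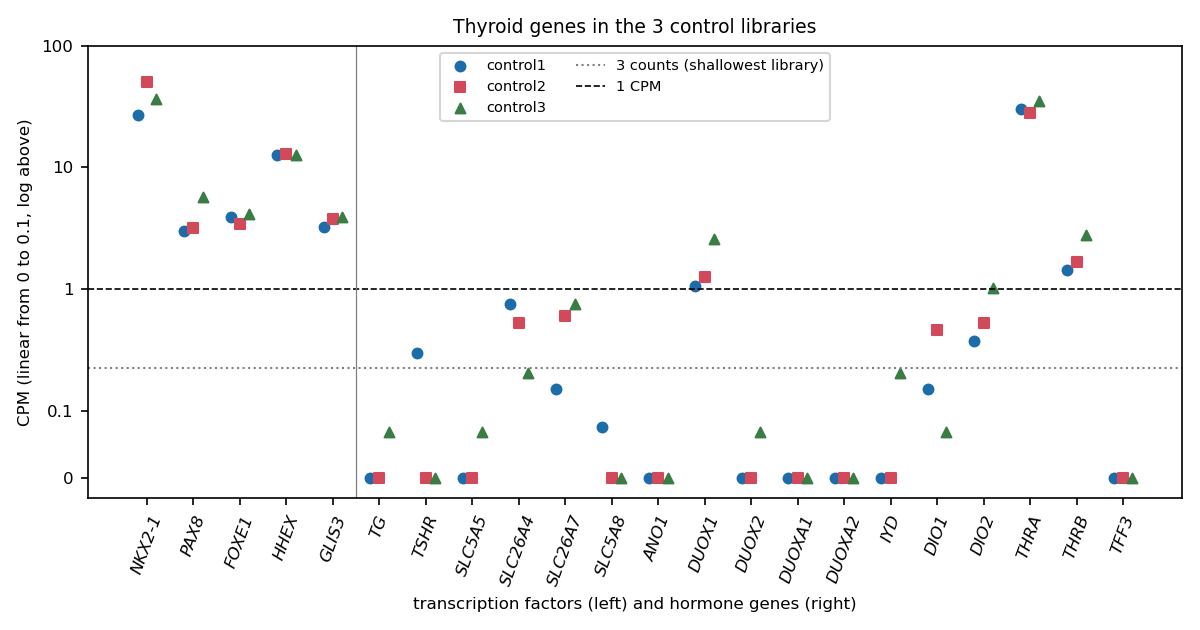
CPM of 22 of the 24 thyroid genes in the 3 control libraries (one symbol per library), on an axis that is linear from 0 to 0.1 CPM and logarithmic above; the dashed line is 1 CPM and the dotted line is 3 counts in the shallowest library (0.225 CPM). All 5 transcription factors lie above 1 CPM, while 14 of the 17 hormone genes drawn have at least 1 library below it.

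Keratins of simple epithelium were abundant, while E-cadherin and several regulators of epithelial identity were at or near 0. KRT18 (382, 453 and 339.9 CPM), KRT7 (371, 436 and 428 CPM) and KRT8 (619.8, 659 and 466 CPM), the paired intermediate filaments of simple epithelia, were abundant in every library. Their partner KRT19 had no count, although no exon base of it is shared with another gene. CDH1, which encodes E-cadherin, stood at 0.075, 0 and 0.0681 CPM, and GRHL2, OVOL1 and RAB25, which maintain epithelial identity and polarity, were at 0. CLDN4, a tight-junction claudin, stood at 7.28, 9.31 and 8.93 CPM and EPCAM, the epithelial adhesion molecule, at 1.5, 1.32 and 2.39 CPM. ESRP1, an epithelial splicing factor, stood at 6.38, 3.103 and 6.07 CPM. In all, 6 of 16 simple epithelial genes reached 1 CPM in every library. Of 12 basal and squamous genes, 8 did, led per length by SFN (14-3-3 sigma, 221 ± 25.2 TPM), the hemidesmosome integrin ITGB4 (164 ± 25.9 TPM), the desmosomal cadherin DSC3 (49.04 ± 7.06 TPM) and KRT17 (42.1 ± 5.96 TPM). The basal keratin KRT5 and the stress keratin KRT6A had no count. TP63 (0.225, 0.660 and 0.477 CPM) and DSG3 (0, 0 and 0.341 CPM) stayed under 1 CPM. KRT15 and KRT16 passed it at means of only 2.44 and 1.38 CPM. KRT14 stood higher at 10.5, 11.6 and 6.88 CPM, and S100A2 at 12.6, 16.4 and 14.99 CPM.

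Mesenchymal genes were detected more widely, with 15 of 18 at 1 CPM or more in every library and only TWIST2, a bHLH factor, at 0. Their median was 20.7 TPM, and 5 of the 18 averaged 100 CPM or more. AXL, a receptor tyrosine kinase linked to invasion, stood at 1542, 1349 and 1479 CPM and was the highest of the list per length at 1116 ± 114 TPM. VIM, the intermediate filament of mesenchyme, stood at 960.5, 1189 and 839 CPM, with control2 the highest. SPARC (286 ± 35.6 TPM) and TGFBI (219.9 ± 27.97 TPM), both matrix-associated proteins, followed per length. AXL was highest in control1, and SPARC and TGFBI were lowest in control3. Among 31 genes for the actin and tubulin cytoskeleton, S100 proteins, annexins and galectins, 30 reached 1 CPM in every library and their median was 431 TPM. The actins ACTG1 (3728 ± 290.2 TPM) and ACTB (2669 ± 188 TPM) and the actin-binding thymosins TMSB10 (3572 ± 776 TPM) and TMSB4X (1639 ± 197 TPM) led the list. Of its 29 members of 10 CPM or more, 19 were lowest in control3 (65.5%, against 22.8% of all nuclear protein-coding genes of that level).

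Markers of other cell types were mostly absent, with a few single genes present. Of 14 leukocyte genes, CD14 alone reached 1 CPM in every library (2.78, 4.69 and 3.82 CPM). PTPRC, which encodes CD45, was at 0.075, 0 and 0.0681 CPM, CSF1R at 0.75, 0.528 and 1.23 CPM, CD3D at 0.15, 0 and 0.0681 CPM and AIF1 at 0, 0.132 and 0 CPM, and CD2, MS4A1, LYZ, TYROBP and FCER1G had no count. Of 9 endothelial genes, the receptor TIE1 (13.1, 14.9 and 21.1 CPM), the cadherin CDH5 (10.4, 10.4 and 11.4 CPM) and PECAM1 (5.93, 4.89 and 4.29 CPM) reached 1 CPM, EMCN lay at 0.375, 0.264 and 0.613 CPM, and VWF, KDR and ERG were at 0. Genes of vessel walls were thus present in part, without the VEGF receptor KDR or the factor ERG. In bulk RNA, a gene used by few cells and one used weakly by all cannot be told apart. Of 11 fibroblast and pericyte genes, 4 reached 1 CPM in every library, namely COL3A1 (49.7, 51.2 and 38.2 CPM), COL1A1 (2.33, 3.04 and 5.04 CPM), RGS5 (3.38, 2.18 and 4.36 CPM) and PDGFRB (1.8, 1.06 and 1.57 CPM). ACTA2, smooth muscle actin, stood at 0.375, 0.9905 and 1.09 CPM. PDGFRA and DPT had no count. Of 8 neural and glial genes, SYT1 (31.7, 29.5 and 32.4 CPM) and MBP (32.4, 29.8 and 38.1 CPM) reached 1 CPM, against 0.225, 0.198 and 1.02 CPM for SNAP25, 0.15, 0.726 and 0.886 CPM for GFAP and 0 for STMN2. The C cells of the thyroid, which make calcitonin, were represented by SCG2 (4.65, 4.23 and 5.72 CPM) and CALCB (1.35, 1.25 and 1.29 CPM) only, while CALCA stood at 0.525, 0.3302 and 0.545 CPM, CHGB at 0.825, 0.264 and 0.886 CPM, and CHGA and CEACAM5 had no count.

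**Figure D2:**
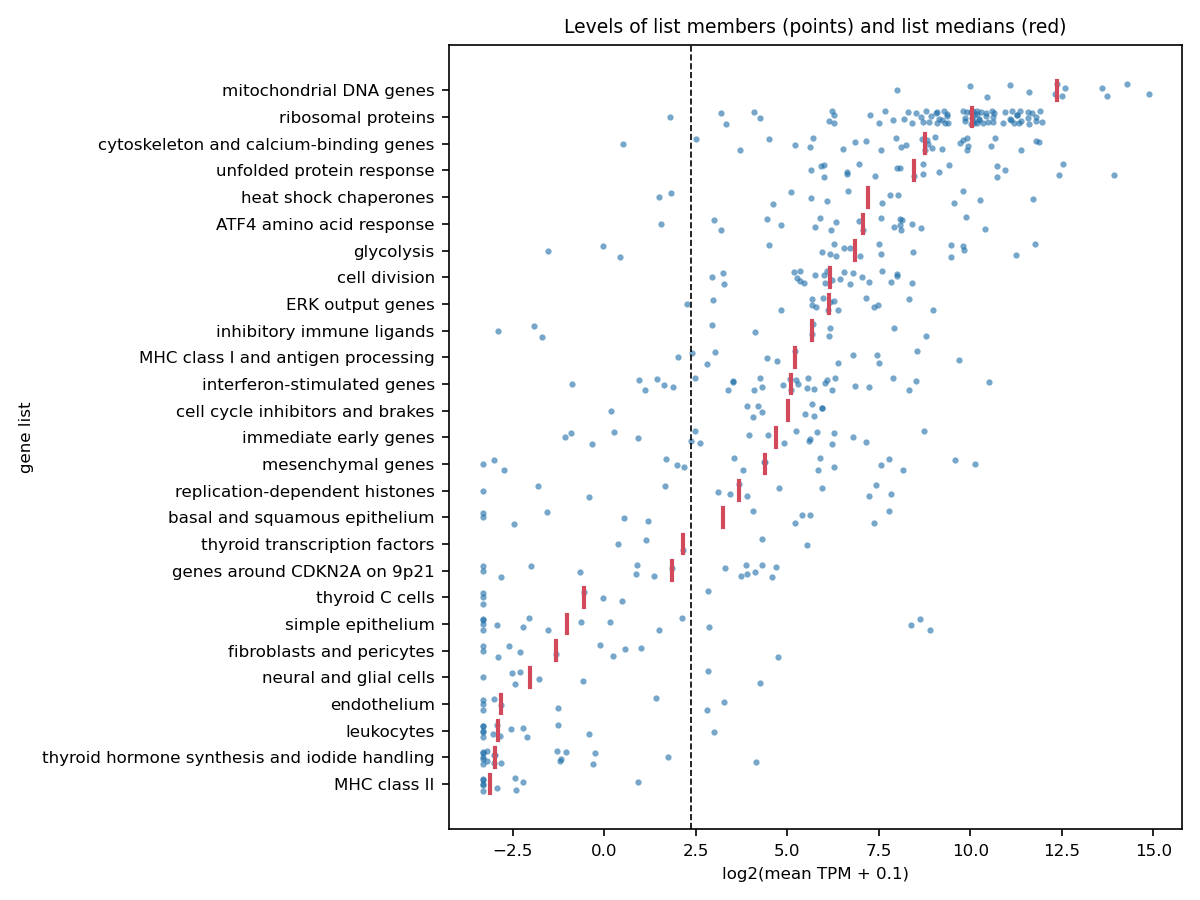
Mean TPM over the 3 libraries, as log2(TPM + 0.1), for each member of 27 gene lists (blue points, spread vertically only for legibility), with the list median in red and the median of all nuclear protein-coding genes as a dashed line. Translation, cytoskeletal and endoplasmic reticulum chaperone genes lie on the right, and thyroid hormone genes, MHC class II genes and markers of other cell types on the left.

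The most abundant nuclear protein-coding transcript per length was a chaperone of the endoplasmic reticulum. HSPA5, which encodes BiP, stood at 15996, 17519 and 12384 CPM and at 15397 ± 2357 TPM, with control3 the lowest. EEF1A1, the elongation factor that brings aminoacyl-tRNA to the ribosome, had more counts (17177, 17552 and 17658 CPM) on a longer gene and came next per length at 11575 ± 376 TPM. MMP1, the interstitial collagenase (chr11:102789920-102798160), was the third at 10360 ± 928 TPM. FTL, the ferritin light chain, was the fourth at 8008 ± 329 TPM. Below them came HSP90B1 (5872 ± 88.02 TPM) and CALR (5486 ± 175 TPM), both chaperones of the endoplasmic reticulum, and EEF2 (5580.4 ± 604 TPM), the translocase of elongation. The remaining 8 of the highest 15 included the ribosomal protein genes RPL8, RPL7A and RPS18, the actin ACTG1, TMSB10, the glycolytic enzyme ENO1 (3479 ± 525 TPM) and the cytosolic chaperone HSP90AB1 (3334 ± 182 TPM). Secretory chaperones, translation factors and 1 secreted protease thus shared the top of the list. Among genes of the nuclear chromosomes that do not code for protein, the paraspeckle RNA NEAT1 had the most counts at 553, 1026 and 1167 CPM, and it was lowest in control1. It is named here by its rank, chosen after its values were seen.

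All 21 genes of the unfolded protein response list, which fold and inspect proteins of the secretory route, reached 1 CPM in every library. Their median was 354 TPM, against 5.03 TPM over all nuclear protein-coding genes. Together they held 3.77%, 3.99% and 3.33% of the counts of the 3 libraries. HSP90B1 (6791, 7411 and 6797 CPM), CALR (3625, 4082 and 3639 CPM) and CANX (3255, 2761 and 3263 CPM), which binds glycoproteins, followed HSPA5. XBP1, the transcription factor of the pathway, stood at 193, 206 and 189 CPM. Of these 21 genes, 14 were lowest in control3 (66.7%, against 22.8% of the 9211 nuclear protein-coding genes of 10 CPM or more).

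The endoplasmic reticulum stress element, known as the site through which ATF6 and its partner NF-Y act, is the sequence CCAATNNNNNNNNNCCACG. It was searched on both strands in the 250 bases before the start site of 14882 nuclear protein-coding genes (RefSeq, GRCh38.p14, 1 window a gene). It was found in 6 of 20 promoters of the list (30%) and in 19 of all 14882 (0.128%). The list was drawn from known targets of the pathway, so this share was partly set by the choice. The matches are shown because 4 of the 6 genes are the 4 most abundant members. Each line runs 5′ to 3′ along the strand of the match, with 5 bases on either side and the CCAAT and CCACG boxes in capitals.
HSPA5: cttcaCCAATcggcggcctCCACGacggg
HSP90B1 (far): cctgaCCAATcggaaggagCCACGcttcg
HSP90B1 (near): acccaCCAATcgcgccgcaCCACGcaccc
CALR: accgaCCAATgatggtcgaCCACGcgtgg
CANX: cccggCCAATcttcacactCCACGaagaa
XBP1: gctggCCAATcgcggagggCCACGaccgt
CRELD2: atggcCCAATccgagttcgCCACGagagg
These stretches lie at chr9:125241386-125241414 (HSPA5, minus-strand gene), chr12:103930211-103930239 and chr12:103930316-103930344 (HSP90B1, plus), chr19:12938379-12938407 (CALR, plus), chr5:179698773-179698801 (CANX, plus), chr22:28800598-28800626 (XBP1, minus) and chr22:49918549-49918577 (CRELD2, plus). CRELD2, a secreted chaperone-like protein at 78.9 CPM, is shown for its match alone.

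The whole 250 bases before the start of HSPA5 (chr9:125241344-125241593, minus strand) place the first base of the element 66 bases before the start. It is printed because this is the promoter of the most abundant nuclear protein-coding transcript per length, again with the boxes in capitals.
HSPA5 upstream: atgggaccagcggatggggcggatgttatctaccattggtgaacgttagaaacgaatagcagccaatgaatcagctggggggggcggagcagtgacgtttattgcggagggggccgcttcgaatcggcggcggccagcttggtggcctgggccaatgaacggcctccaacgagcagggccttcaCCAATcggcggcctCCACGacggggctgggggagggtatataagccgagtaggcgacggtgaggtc
The letters of a motif in this window describe the sequence and say nothing of binding in these cells.

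Genes of amino acid synthesis and transport that answer to ATF4, the factor of the integrated stress response, were all detected. Each of the 21 reached 1 CPM in every library, with a median of 135 TPM. PSAT1, a serine synthesis enzyme, stood at 765, 738 and 744 CPM and was the highest per length at 1349.8 ± 70.4 TPM. SLC3A2, the heavy chain of amino acid exchangers, stood at 944, 1371 and 1433 CPM, and control1 was below the other 2. Its light chain SLC7A5 stood at 458, 481 and 508 CPM, and WARS, the tryptophanyl-tRNA synthetase, at 603, 558 and 489.7 CPM. The letters TTGCATCA, searched as an amino acid response element in the same windows, were found in 1 of 16 promoters of this list, that of CHAC1 (6.25%). They were found in 86 of all 14882 (0.578%). All 14 cytosolic and mitochondrial heat shock chaperones also reached 1 CPM, led by HSP90AB1 (3334 TPM), HSP90AA1 (1224 TPM), HSPA8 (885 TPM) and HSPD1 (754 TPM). Their median CV of 4.79% over 12 members of 10 CPM or more was below that of all nuclear protein-coding genes of 10 CPM or more (9.96%). That set was not matched for level. Over all named genes the median CV was 10.7% at 10 to 100 CPM and 8.15% at 100 to 1000 CPM.

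Glycolytic genes were high, and control3 was the low library in nearly all of them. ENO1 (enolase) stood at 5119, 5038 and 3823 CPM, GAPDH at 2058, 1982 and 1497 CPM, LDHA (lactate dehydrogenase) at 1609, 1578 and 1147 CPM and PKM (pyruvate kinase) at 2138, 2060.2 and 1611 CPM. In each of these 4 enzymes the libraries of control1 and control2 were close and control3 lay below both. Of 20 genes, 17 reached 1 CPM in every library. Of the 17 of 10 CPM or more, 16 were lowest in control3 (94.1%, against 22.8% of all nuclear protein-coding genes of that level), with a median log2 deviation from the other 2 libraries of -0.41.

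Among 269 genes of secreted proteins, 191 reached 1 CPM in every library and 27 had no count. MMP1, which cleaves fibrillar collagen, stood at 5335, 5645 and 4572 CPM, with control3 the lowest. Its 10360 TPM were set against 1243 ± 64.9 TPM for PSAP, the next gene on the list, a precursor of lysosomal activators. The galectin LGALS1 (977 ± 155 TPM), the galectin-binding glycoprotein LGALS3BP (846 ± 68.99 TPM) and the annexin ANXA1 (835 ± 57.8 TPM) followed. These 3 did not stand apart in order, since their means differ by less than the SD of LGALS1. B2M, the light chain of MHC class I, was next (827 ± 15.01 TPM), with TFPI2, a protease inhibitor of the matrix (684 ± 62.4 TPM), and CYR61, a matricellular YAP target (683 ± 70.6 TPM). GRN, which encodes progranulin (659 ± 24.8 TPM), the cytokine IL24 (629 ± 88.2 TPM), the metalloproteinase inhibitor TIMP1 (513 ± 49.96 TPM) and the WNT antagonist SFRP1 (474 ± 76.3 TPM) completed the 12 highest. IL24 was highest in control3 (285, 299.8 and 361 CPM), whereas SFRP1 was lowest there (649.5, 592 and 475 CPM). The 12 thus mixed a protease, 2 protease inhibitors, galectin-related proteins, a WNT antagonist and a cytokine.

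Of 299 listed genes of cell surface proteins, 234 reached 1 CPM in every library. The ranks below hold within that list, which leaves out other genes with a surface GO term in the deposited annotation. One of them is SLC38A2 (746 ± 91.5 TPM). AXL (1116 ± 114 TPM), the lactate transporter partner BSG (1008 ± 35.95 TPM), the amyloid precursor APP (951 ± 72.5 TPM) and SLC3A2 (949 ± 190.5 TPM) were the highest, and their ranges over the libraries overlapped. The integrin chain ITGB1 (618 ± 73.9 TPM), the syndecan SDC4 (583 ± 48.8 TPM), the ectonucleotidase NT5E, also known as CD73 (524 ± 54.5 TPM), and the ephrin receptor EPHA2 (502 ± 42.98 TPM) came next. The prion protein PRNP (498 ± 37.7 TPM), the tetraspanin-like TM4SF1 (494 ± 9.68 TPM), the mucin-like CD24 (441 ± 13.4 TPM) and the caveolar protein CAV1 (411 ± 41.6 TPM) closed the group. The order of most of these neighbours was not resolved by the spread over libraries. SLC3A2 varied the most of the 12 among libraries (CV 21.3%) and TM4SF1 the least (CV 2.46%).

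Of 480 transcription factor genes, 317 reached 1 CPM in every library and 85 had no count. YBX1, a cold-shock protein that binds DNA and RNA (2118 ± 94.6 TPM), and HMGA1, an architectural chromatin protein (1981 ± 138 TPM), led the class. ATF4 was the third (991 ± 38.2 TPM). After them the levels dropped to 323 ± 42.5 TPM for FOSL1, the AP-1 subunit FRA1. XBP1 (255 ± 4.47 TPM), NFE2L1, a factor of proteasome genes (243 ± 37.1 TPM), and HIF1A, the hypoxia factor (211 ± 16.4 TPM), came next. DDIT3, the stress factor CHOP (190.1 ± 38.9 TPM), CEBPG, a partner of ATF4 (183 ± 26.2 TPM), TFDP1, a partner of E2F factors (174 ± 9.85 TPM), and E2F4 (147 ± 5.56 TPM) were among the rest. The exons of DDIT3 share 39.6% of their bases with other genes, so its level is uncertain. The stress factors ATF4, XBP1 and DDIT3 stood among the 12, and NKX2-1, the highest thyroid factor, reached 46.7 TPM.

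**Figure D3:**
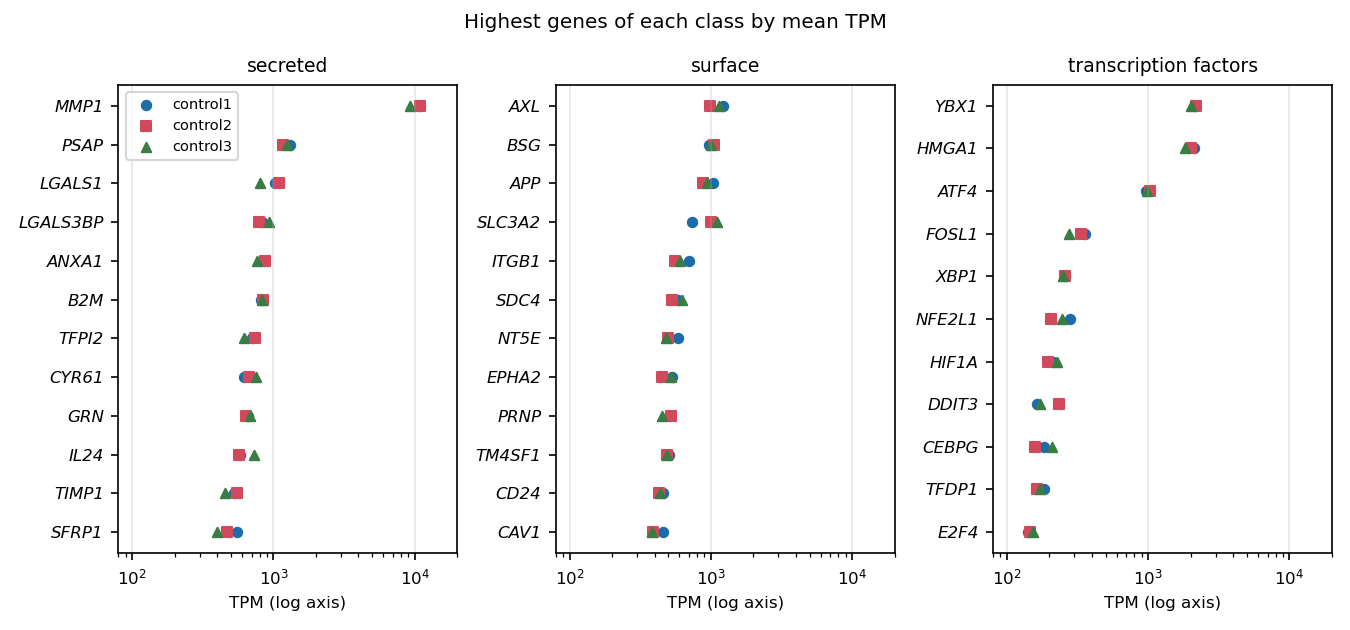
TPM (logarithmic axis) of the 12 highest secreted, 12 highest surface and 11 of the 12 highest transcription factor genes in each of the 3 control libraries. MMP1 stands apart among the secreted genes drawn at 10360 TPM on average, while the surface genes drawn lie between 411 and 1116 TPM.

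Genes that report growth signalling and division were present throughout. All 16 ERK output genes reached 1 CPM in every library, led per length by EPHA2 (502 TPM), FOSL1 (323 TPM), the cyclin CCND1 (178 TPM) and the phosphatase DUSP5 (164 TPM). Of 20 immediate early genes 17 did, led per length by the phosphatase DUSP1 (197, 239 and 215 CPM), IER3 (38.1, 64.4 and 43.5 CPM), MYC (74.3, 87.5 and 92.2 CPM) and KLF4 (63.6, 86.8 and 64.5 CPM). All 24 division genes did, with the topoisomerase TOP2A at 625, 543 and 488 CPM, the replication clamp PCNA at 101, 96.5 and 87.2 CPM, the helicase subunit MCM3 at 229, 218 and 254 CPM and the cyclin CCNB1 at 154, 166 and 125 CPM. TOP2A, PCNA and CCNB1 were lowest in control3, and MCM3 was highest there. Of the 22 division genes of 10 CPM or more, 15 were lowest in control3 (68.2%, against 22.8% of all nuclear protein-coding genes of that level). So were 10 of the 14 ERK output genes of that level (71.4%). Among 10 cell cycle brakes, RB1 (62.1 TPM), CDKN1B (62.1 TPM), RBL1 (53.4 TPM) and RBL2 (51.3 TPM) were the highest. Of 17 genes around CDKN2A on chromosome 9p21, 11 reached 1 CPM, led by CAAP1 (25.7 TPM), PLAA (23.6 TPM), CDKN2A (19.9 TPM) and IFT74 (17.1 TPM). IFNA1 and ELAVL2 had no count. CDKN2A itself varied between libraries (13.4, 38.03 and 15.1 CPM), with control2 above both others. Of 13 histone genes of the replication-dependent clusters, 9 reached 1 CPM in every library, led by HIST1H2BK (227 TPM), HIST1H2AC (171 TPM), HIST1H1C (149.7 TPM) and HIST1H2BD (61.8 TPM), and HIST1H3D, all of whose exon bases are shared with other genes, was at 0. Most messages of these clusters lack a poly(A) tail and polyadenylated RNA was selected here, and the part of that selection in these levels was not tested.

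Genes of antigen presentation by MHC class I were present, and those of class II were at or near 0 apart from low counts of HLA-DMA. All 13 class I and processing genes reached 1 CPM in every library, with B2M at 1219, 1352 and 1257 CPM, HLA-E at 299, 305 and 245 CPM and HLA-C at 80.9, 147 and 119 CPM. HLA genes resemble each other and vary between people, so reads may have been split among them. Of 10 class II genes, 0 reached 1 CPM in every library. HLA-DMA, which loads peptides, was the highest at 0.375, 0.9905 and 2.11 CPM. The class II activator CIITA lay at 0.15, 0.9905 and 0.273 CPM, HLA-DMB at 0, 0.06603 and 0.341 CPM and the invariant chain CD74 at 0, 0.06603 and 0.136 CPM, and HLA-DRA, HLA-DRB1, HLA-DPB1, HLA-DQA1 and HLA-DQB1 had no count. Of 11 inhibitory ligands, 8 reached 1 CPM, led by CD24 (441 TPM), the poliovirus receptor PVR (243 TPM), CD274, which encodes PD-L1 (71.8 TPM), and CD276 (70.6 TPM). CD274 stood at 74.6, 64.8 and 84.5 CPM, with control3 the highest.

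Interferon-stimulated genes were expressed in these control-hairpin cells, and they were among the more variable lists. Every library of the series carries a hairpin, so levels without one are not known here. Of 31 genes, 30 reached 1 CPM in every library. IFITM3, a membrane protein that blocks virus entry, stood at 487, 565 and 444 CPM and IFITM2, a near copy of it, at 137, 148 and 93.5 CPM. ISG15, a ubiquitin-like modifier, stood at 48.2, 119 and 95.3 CPM and IFI6, a mitochondrial and reticulum protein, at 35.7, 80.6 and 41.9 CPM. Both ISG15 and IFI6 were lowest in control1 and highest in control2. The median CV of the 24 members of 10 CPM or more was 19.9%, against 9.96% over all nuclear protein-coding genes of that level. IRF factors and the ISGF3 complex are known to read paired GAAA boxes. The core GAAANNGAAA, searched on both strands of the 250 upstream bases, was found in 13 of 21 promoters of this list (61.9%) and in 409 of 14882 (2.75%). This list too was drawn from known targets. The matches nearest the start in the 4 most abundant of the 13 genes are shown on the strand of the match, with the GAAA boxes in capitals.
IFITM3: gttgaGAAAccGAAActact
ISG15: aaaggGAAAccGAAActgaa
IFI6: gtgcaGAAAtaGAAActccg
BST2: aaactGAAActGAAAaccta
They lie at chr11:320881-320900 (IFITM3, minus-strand gene), chr1:1013385-1013404 (ISG15, plus), chr1:27672271-27672290 (IFI6, minus) and chr19:17405740-17405759 (BST2, minus; a tetherin of budding viruses at 32.5 CPM).

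Promoter sequence differed along the range of levels. The ratio of observed to expected CpG in the 300 bases around the start had a median of 0.304 in genes with no count, 0.487 above 0 and under 1 CPM, 0.777 at 1 to 10 CPM and 0.854 at 10 to 100 CPM. It stayed at 0.879 from 100 to 1000 CPM and 0.877 at 1000 CPM or more, so the ratio was higher in genes with higher counts up to that level. The letters TATAAA, starting 20 to 40 bases before the start on the gene's strand, were found in 246 of 2924 promoters of genes with no count (8.41%), in 55 of 5729 at 10 to 100 CPM (0.960%) and in 5 of 65 at 1000 CPM or more (7.69%), against 515 of all 14882 (3.46%). The value at 1000 CPM or more rests on those 5 promoters. Proteins encoded by genes with no count had a median length of 316 amino acids, against 522 at 100 to 1000 CPM and 357 at 1000 CPM or more. These bins use CPM, which is not divided by length, so longer genes draw more counts. Median exon length was 2184, 6195.5 and 4495 bases in the same bins. The part of gene length in the differences between bins was not tested. By chromosome, 45.5% of protein-coding genes of chromosome 21 and 50.1% of those of chromosome X reached 1 CPM in every library, and 62.8% of those of chromosome 14 did.

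The 3 controls were close to each other for most genes. Pearson's r of log2 CPM across 12856 genes was 0.984 between control1 and control2, 0.988 between control1 and control3 and 0.985 between control2 and control3 (genes are not independent replicates). Of 7708 genes of 20 CPM or more, 91.9% lay within 1.5-fold from lowest to highest library and 59 (0.765%) differed over 2-fold. That number was 29 without control1, 9 without control2 and 38 without control3, where only 2 libraries set the range. The median CV of the 7708 genes was 9.46%, where counting error alone would give 3.40%. The common biological CV that edgeR estimated was 13.7%, and its trended value fell from 21.8% in genes under 10 CPM to 10.98% at 100 to 1000 CPM. PCNP (391, 390 and 390.2 CPM), CDV3 (304, 303 and 303 CPM) and TPD52L2 (421, 423 and 422 CPM) had the smallest CV of genes of 100 CPM or more, below what counting alone gives on average.

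**Figure D4:**
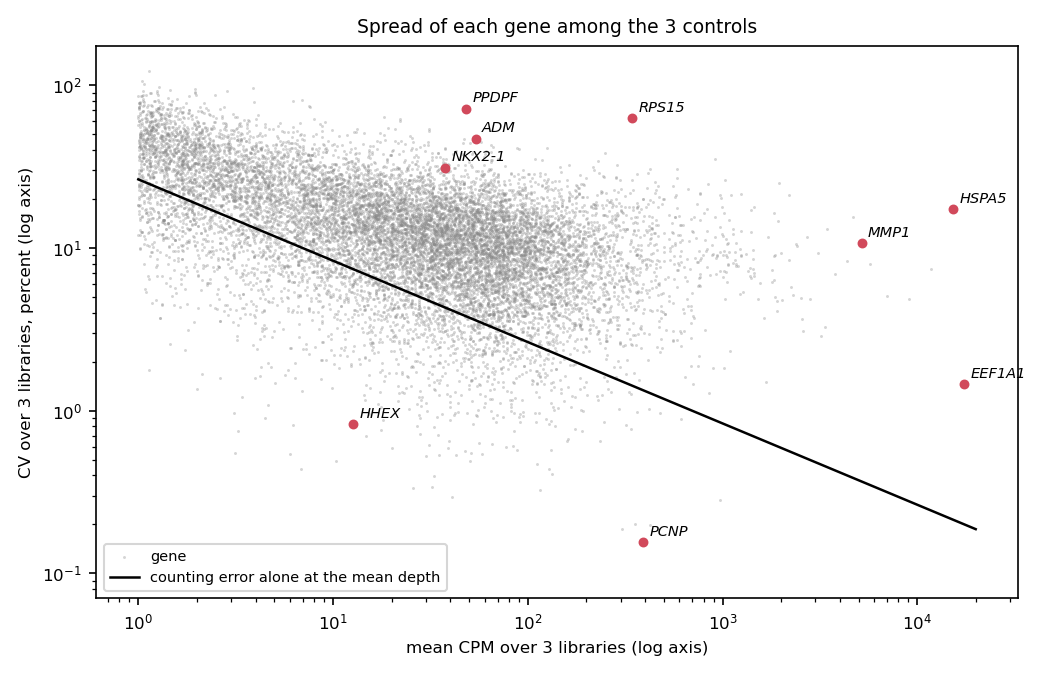
CV over the 3 libraries (percent, logarithmic axis) against mean CPM (logarithmic axis) for genes of at least 1 CPM on average, with the CV that counting error alone gives as a line and 9 genes in red. Most genes of 20 CPM or more lie above the line (median 9.46% against 3.40%), and HHEX and PCNP lie below it.

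The genes with the largest ratio between libraries fell into a few recurring patterns. PPDPF, named for the growth of pancreatic progenitors, had the largest at 20.6, 87.3 and 37.2 CPM. RPS15, a ribosomal protein gene, followed at 169, 585 and 279.9 CPM, then SCAND1 at 11.7, 37.2 and 17.7 CPM and DNPH1, a nucleotide hydrolase, at 16.1, 49.4 and 28.3 CPM. CA9, a carbonic anhydrase induced in hypoxia (28.4, 35.6 and 12.1 CPM), ADM, the peptide adrenomedullin (63.7, 73.3 and 25.4 CPM), and SLC6A8, the creatine transporter (24.3, 27.9 and 10.02 CPM), were lowest in control3. SCAND1 and CA9 share 39.9% and 38.5% of their exon bases with other genes. CDKN2A, the respiratory chain subunit COX5B (11.8, 33.3 and 17.4 CPM) and SSBP4 (12.1, 32.3 and 22.3 CPM) were highest in control2. Of the 59 genes over 2-fold, control2 was the library farthest from the other 2 in 29, control1 in 18 and control3 in 12.

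Control2 stood farther from the other 2 libraries than they did from each other, and its deviations varied with transcript length and with GC content. It was the farthest library in 3439 of 7708 genes (44.6%), against 2177 for control1 and 2092 for control3. The genes highest in it relative to the others were PPDPF, RPS15, CDKN2A, SCAND1 and COX5B. Those lowest in it were the kinetochore motor CENPE (57.5, 22.98 and 59.8 CPM), ANKRD12 (36.5, 16.2 and 36.5 CPM), INSYN2B (38.6, 15.4 and 30.2 CPM), the ciliary CEP290 (26.3, 14.7 and 35.5 CPM) and the kinase anchor AKAP9 (64.1, 35.3 and 83.1 CPM). Over quintiles of transcript length, its median log2 deviation from the other 2 ran from 0.17 in the shortest genes (median length 1819 bases) to -0.26 in the longest (8210 bases). Control1 ran the other way, from -0.14 to 0.13, and control3 from -0.03 to 0.13. Over quintiles of transcript GC content, control2 stood at -0.10 in the lowest (median 37.9% GC) and at 0.09 in the highest (60.2%). Control1 stood at 0.02 and -0.11 in those quintiles, and control3 at 0.09 and 0.02. Of 74 ribosomal protein genes of 10 CPM or more (median transcript length 1842 bases), 70 were highest in control2 (94.6%) and 67 lowest in control1 (90.5%), against 31.5% and 34.3% of all nuclear protein-coding genes of that level. With TMM factors these counts were 73 and 49, and with DESeq2 size factors 73 and 50. The part of transcript length, GC content, library preparation or RNA quality in this was not tested.

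Control1 was lowest, relative to the others, in DNPH1, the long non-coding MIR503HG (11.03, 23.8 and 25.6 CPM), the depalmitoylase ABHD17A (16.7, 42.7 and 32.4 CPM), SSBP4 and ISG15. It was highest in the DNA ligase LIG3 (42.5, 23.8 and 27.8 CPM), the endosomal RAB11FIP1 (27.5, 14.8 and 20.2 CPM), the cornified envelope protein PPL (30.1, 20.1 and 17.7 CPM), WDFY3 (76.4, 44.2 and 53.5 CPM) and the long non-coding LNCAROD (123, 76 and 82.2 CPM). The genes lowest in it were shorter than those highest in it, apart from LNCAROD among the highest. Control3 was lowest in ADM, CA9, SLC6A8, the fatty acid desaturase SCD (68.4, 57.2 and 25.8 CPM) and the glycolytic regulator PFKFB4 (38.6, 34.1 and 15.1 CPM). It was highest in TARBP1 (20.1, 15.8 and 38.4 CPM), the interferon-induced IFIT2 (24.3, 21.1 and 46.3 CPM), the RNA sensor DDX58 (32.3, 34.01 and 62.5 CPM), the chemokine CCL5 (52.7, 47.1 and 93.2 CPM) and GOLGA8B (57, 83.8 and 129 CPM). A list of 24 hypoxia-induced genes was added because of these values and holds ADM, CA9 and PFKFB4, so its count is a description. Of its 19 members of 10 CPM or more, 17 were lowest in control3 (89.5%, against 22.8%), with NDRG1 at 1199, 1175 and 719 CPM and BHLHE40 at 147, 163 and 66.6 CPM. VEGFA, the vessel growth factor (225, 249.7 and 269 CPM), and EGLN1, an oxygen-sensing hydroxylase (97.4, 89.9 and 93.02 CPM), were the exceptions. Without ADM, CA9 and PFKFB4, 14 of 16 were lowest there. With TMM factors or DESeq2 size factors, 16 glycolytic and 18 hypoxia genes were lowest in control3. The glycolytic and hypoxia genes had median transcript lengths of 3579 and 3670 bases, against 4004 bases in all nuclear protein-coding genes of that level, and the part of length in these counts was not tested.

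**Figure D5:**
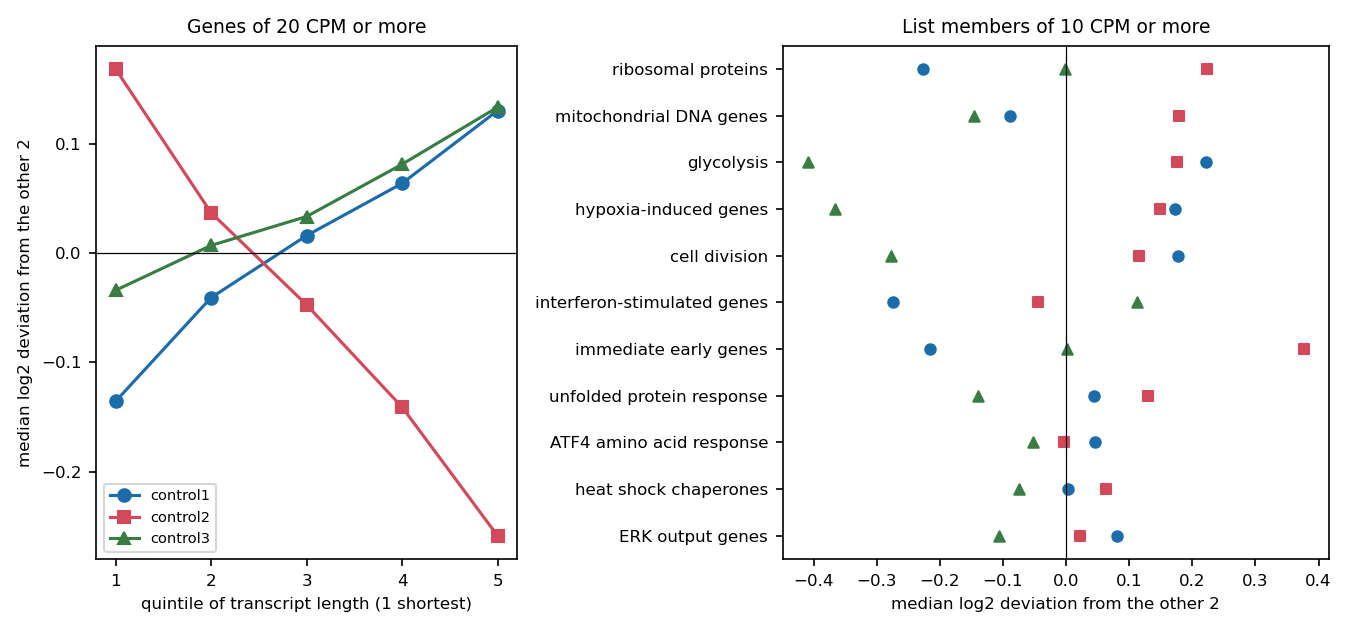
Median log2 deviation of each control library from the other 2, on the left over quintiles of transcript length (7692 genes of 20 CPM or more, quintile 1 the shortest) and on the right for list members of 10 CPM or more. Control2 falls from 0.17 to -0.26 along length, and control3 lies at -0.41 for glycolysis and -0.37 for the added hypoxia list.

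Some levels are uncertain because exons overlap those of other genes or have near copies. ALDOA, an aldolase of glycolysis, stood at 1.13, 2.05 and 0.613 CPM while TPI1, the next enzyme of the pathway, stood at 493, 573 and 393 CPM, and 53.5% of its exon bases are shared with other genes. FTH1, the ferritin heavy chain (4.1 CPM, 62.4% shared), ASNS, asparagine synthetase (3.203 CPM, 44.6%), TYMS, thymidylate synthase (4.77 CPM, 46.6%), and IRF9 (0.414 CPM, 48.4%) were low in the same way. RPL10 reached 1173 CPM with 55.5% shared, so overlap did not always go with a low level. Among genes listed at 0, DPT (54.6%), LYZ (33.96%) and HIST1H3D (100%) also share exon bases, as does CD68 (85.8%). So do the thyroid genes DUOXA2 (28.6%), DUOXA1 (19.1%) and ANO1 (10.7%), also listed at 0, while TFF3 shares 0%. HSPA1A and HSPA1B are near-identical copies and stood at 1.71 and 32.1 CPM. How the counting treated such reads is not given in the sources used here, and its part in these levels was not tested.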

How the data were processed

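The deposited table holds raw counts per gene, with 59733 rows, and only the count columns of the 3 controls were read, per the file headers. Another 9 columns of per-sample values were not used. For the aligner, the counter, its strand setting and the build, the entry is: not given in the sources used here. Of 58735 named genes, 58683 have the same start and end in GENCODE 29 (GRCh38), which gave biotypes and exon lengths. The 998 assembled rows without a gene name stayed out of library totals; they came to 0.245% to 0.299% of named-gene counts. CPM used totals of 13333245 to 15144176 counts, and TPM the union of exons. No test was run, since 1 group was described. Spread is the SD or CV over 3 libraries, or the dispersion from edgeR 4.0.16 (R 4.3.3), whose use was tested on simulated data. Deviations used log2(CPM + 0.1). Tables were made with pandas 2.3.3, scipy 1.17.1 and numpy 2.4.6. Alternatives used TMM factors, DESeq2 1.42.0 size factors, other thresholds and lengths, and each library left out.

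Members and lists were chosen with earlier results of these data known. Of 1530 list entries in 30 lists, 1528 matched a gene, and 2 lists were added after values were seen. Genes named were all thyroid genes, the 15 highest nuclear protein-coding genes by TPM, the 12 highest of each class, up to 4 highest members of each other list with its members at 0, the 10 genes of 20 CPM or more with the largest ratio between libraries, 5 per library and direction, and the 3 of 100 CPM or more with the smallest CV. Other members of marker lists, shared-exon genes, genes with a motif and genes placed in a class by GO term alone were named after their values were seen. A few genes that the rule names are not reported here. Promoter windows (250 bases before to 50 after a start) are from RefSeq, GRCh38.p14.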

Additional observations from a re-analysis of the deposited data

Results flagged for a closer look

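One assembled locus without a gene name carried a clear signal outside the named genes. It lies at chrX:4540415-4545970 and had 7092, 6508 and 6641 counts, or 532, 429.7 and 453 CPM on the named-gene totals (mean 471 ± 53.6, SD, n = 3). That is well above the 3 counts taken as the limit for 0, and no other group serves as its control here. The locus spans 5556 bases, overlaps 0 named genes, and lies 826807 bases after the coding gene PRKX and 1294667 bases before NLGN4X. It holds 17.4% of all counts in rows without a gene name. Its strand is not given in the table.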

How the results depend on the processing

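No paired analysis was possible because 1 group was described and the count columns carry no replicate label of the titles. Of 59 alternatives, 42 moved a value by less than the SD between libraries or, for a count of genes, by at most 1.5 times. Leaving out each library in turn gave a median CV of 6.77% to 8.95% (10.1% with all 3), a common biological CV of 11.7% to 15.02% (13.7%) and 9 to 38 genes over 2-fold (59). The lowest of each came without control2. With only 2 libraries a range is smaller by construction. The median CV was 8.67% for genes of 50 CPM or more and 12.5% for genes of 1 CPM or more, and 19 genes of 50 CPM or more differed over 2-fold. Without mitochondrial genes, the 10 most abundant genes held 7.16% of counts. Of the 12 highest secreted genes, 7 stayed with the mean length of transcripts, as did 8 of the 12 surface and 8 of the 12 transcription factor genes. Ranked by CPM with no length, 6 of the secreted, 7 of the surface and 7 of the transcription factor genes stayed. With class members taken by GO term from the deposited annotation (chosen after seeing the data), 1, 3 and 4 stayed. The highest gene became EEF1A1 for the secreted and HSPA5 for the surface term, and CNBP, APP and NONO entered the transcription factors. The number of thyroid genes at 1 CPM or more was 7 to 9. Depth limits genes under 0.225 CPM, whose absence and low level cannot be told apart.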

Other observations

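Genes of iron storage and redox control, a list added after values were seen, were all detected, and 8 of 14 averaged 100 CPM or more. Of 14 genes, 14 reached 1 CPM in every library, with the thiol reductant TXN at 295, 356 and 253 CPM and 1037 ± 146 TPM, the peroxidase GPX4, which guards membrane lipids, at 123, 188 and 135 CPM, and the thioredoxin reductase TXNRD1 at 463, 413 and 501 CPM. TXN and GPX4 were highest in control2 and TXNRD1 lowest there. HMOX1, which breaks down haem, was low beside them at 6.3, 8.06 and 5.72 CPM. The ferritin heavy chain FTH1, whose exons overlap those of other genes, was low too. Of the 12 members of 10 CPM or more, 10 were highest in control2 (83.3%, against 31.5% of all nuclear protein-coding genes of that level). Their median transcript length was 1732 bases, within the shortest quintile of transcripts, where the median log2 deviation of control2 over genes of 20 CPM or more was 0.17. The part of length in this count was not tested.

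Among RNAs that do not code for protein, the growth-arrest transcript GAS5 stood at 355, 468 and 579 CPM and MALAT1 at 252, 341 and 429.9 CPM. Both were lowest in control1 and highest in control3, as was NEAT1. NORAD, a cytoplasmic RNA that holds PUMILIO proteins, stood at 549, 483 and 535 CPM without that order.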
